A study of Mus musculus with 2 samples.

Results

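Noradrenaline and adrenaline set the force and rate of the heartbeat through receptors that are read out as cyclic AMP and, with nitric oxide, as cyclic GMP. The genes of this system were examined in the left ventricle of heart-specific *Bmal1* knockout mice. The list held 52 genes in 9 role groups, named by their place in the pathway, and all 52 had at least 1 probe on the array. A gene was taken as measured where at least 1 of its probes was well above background on at least 1 array. By this rule 49 of the 52 genes were measured, among 13846 measured genes in all. The other 3, *Adra2a*, *Pde8a* and *Ppp1r1a*, were not well above background on either array.

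The data are 2 single-color Agilent arrays of left ventricular RNA, 1 for *H-Bmal1*-/- mice and 1 for control mice, each carrying the pooled RNA of 6 male animals aged 12 weeks with tissue taken at ZT 2, where ZT 0 is lights on. The *H-Bmal1*-/- mice carry a floxed *Bmal1* gene and a Cre transgene under the αMHC promoter, which is active in cardiomyocytes, so the deletion is not directed at the other cells of the ventricle. The controls, which the labels call wild type, were littermates that had the floxed gene and lacked Cre. The methods describe the floxed line as C57BL/6J. Its strain name there includes another strain besides B6, as does the B6.FVB name of the Cre line. No array of mice with Cre alone was analysed here. With 1 pool per genotype there is no measure of the spread between animals, no test and no p-value, and each difference below is a difference between 2 pools.

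Adrenergic receptors of the β type act through the stimulatory G protein, which switches on adenylyl cyclase. The cyclic AMP made there frees the catalytic subunits of protein kinase A from their regulatory subunits. The kinase phosphorylates calcium channels, pump regulators and myofilament proteins. Phosphodiesterases break the cyclic nucleotides down, receptor kinases and arrestins silence the receptors, and anchoring proteins hold kinase, phosphodiesterase and substrate together. Cyclic GMP, made by soluble guanylyl cyclase when nitric oxide binds it, acts mainly through protein kinase G. In cardiomyocytes the circadian transcription factor BMAL1 binds with CLOCK to the DNA letters CACGTG, the E-box, and loss of BMAL1 removes the heterodimer.

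Values are the processed signal of a probe, which the scanner software gives after background correction, and the log2 ratio of the knockout over the control pool after each array was divided by its own 75th percentile of signal. That percentile was 190 on the knockout array and 171 on the control array, so equal signals before scaling correspond to a log2 ratio of about -0.15. A difference was counted where it reached 1.5-fold in either direction, a rule of size and not a test. Repeat spots of the same probe give the technical error within an array pair. Their log2 ratios had a median SD of 0.07 over 247 probes spotted at least 8 times, of 0.06 for probes with a mean signal of at least 200, of 0.12 from 50 to 200 and of 0.25 under 50. The arrays were scanned without a saturated spot. As a check of the labels, *Arntl*, which encodes BMAL1, had a signal of 328 in the knockout pool and 513 in the control pool (log2 ratio -0.80), and *Nr1d1*, a direct clock target, 101 in the knockout pool and 385 in the control pool (log2 ratio -2.09).

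Of the 49 genes, 5 were higher in the knockout pool by 1.5-fold or more (10.2%) and 6 were lower by as much (12.2%), against 5.1% higher and 4.51% lower among the 13050 genes well above background on both arrays, as all 49 were. With the genes seen on a single array included, the shares over all 13846 measured genes were 6.15% higher and 5.85% lower. The members were chosen with earlier results of these data known. The larger shares of the list therefore describe the genes chosen and are not evidence about the pathway. The median log2 ratio of the list was -0.04, close to the -0.02 of all genes on both arrays, and 30 of the 49 genes lay below 0. Without scaling between arrays every ratio is higher by 0.15, so that 16 of the 49 lay below 0 and the medians were 0.11 for the list and 0.14 for all measured genes. Ratios near 0 are therefore read against the array as a whole. The median size of the ratio without its sign was 0.23 for the list and 0.18 for all genes. The list therefore held genes that differed in both directions around a center near that of the array, and 23 of its genes lay within 0.2 of 0.

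The genes that were higher encode the kinase of cyclic GMP (*Prkg1*), a receptor kinase (*Grk5*), a G protein (*Gnao1*), an adenylyl cyclase (*Adcy7*) and a regulatory subunit of protein kinase A (*Prkar1a*). Those that were lower encode 2 receptors (*Adrb1*, *Adra1a*), the cyclase *Adcy6*, 2 phosphodiesterases specific for cyclic AMP (*Pde4d*, *Pde7a*) and the cyclic AMP sensor *Rapgef4*. All 5 of the higher genes were among the 31 with a mean signal of at least 200, where 3.9% of all genes were higher and 2.85% lower. Of the 6 lower genes, *Adcy6* alone was in that class. The other 5 were among the 18 dimmer genes, *Adra1a* under 50, where 8.21% of all genes were higher and 9.82% lower, and *Adrb1*, *Pde4d*, *Pde7a* and *Rapgef4* from 50 to 200, where 6.03% were higher and 5.12% lower. The genes nearest to the threshold were *Adcy6* and *Adrb1*, 1.57-fold and 1.59-fold lower, just inside it, and *Pde2a* and *Pde9a*, 1.496-fold and 1.33-fold higher, just outside.

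**Figure D1:**
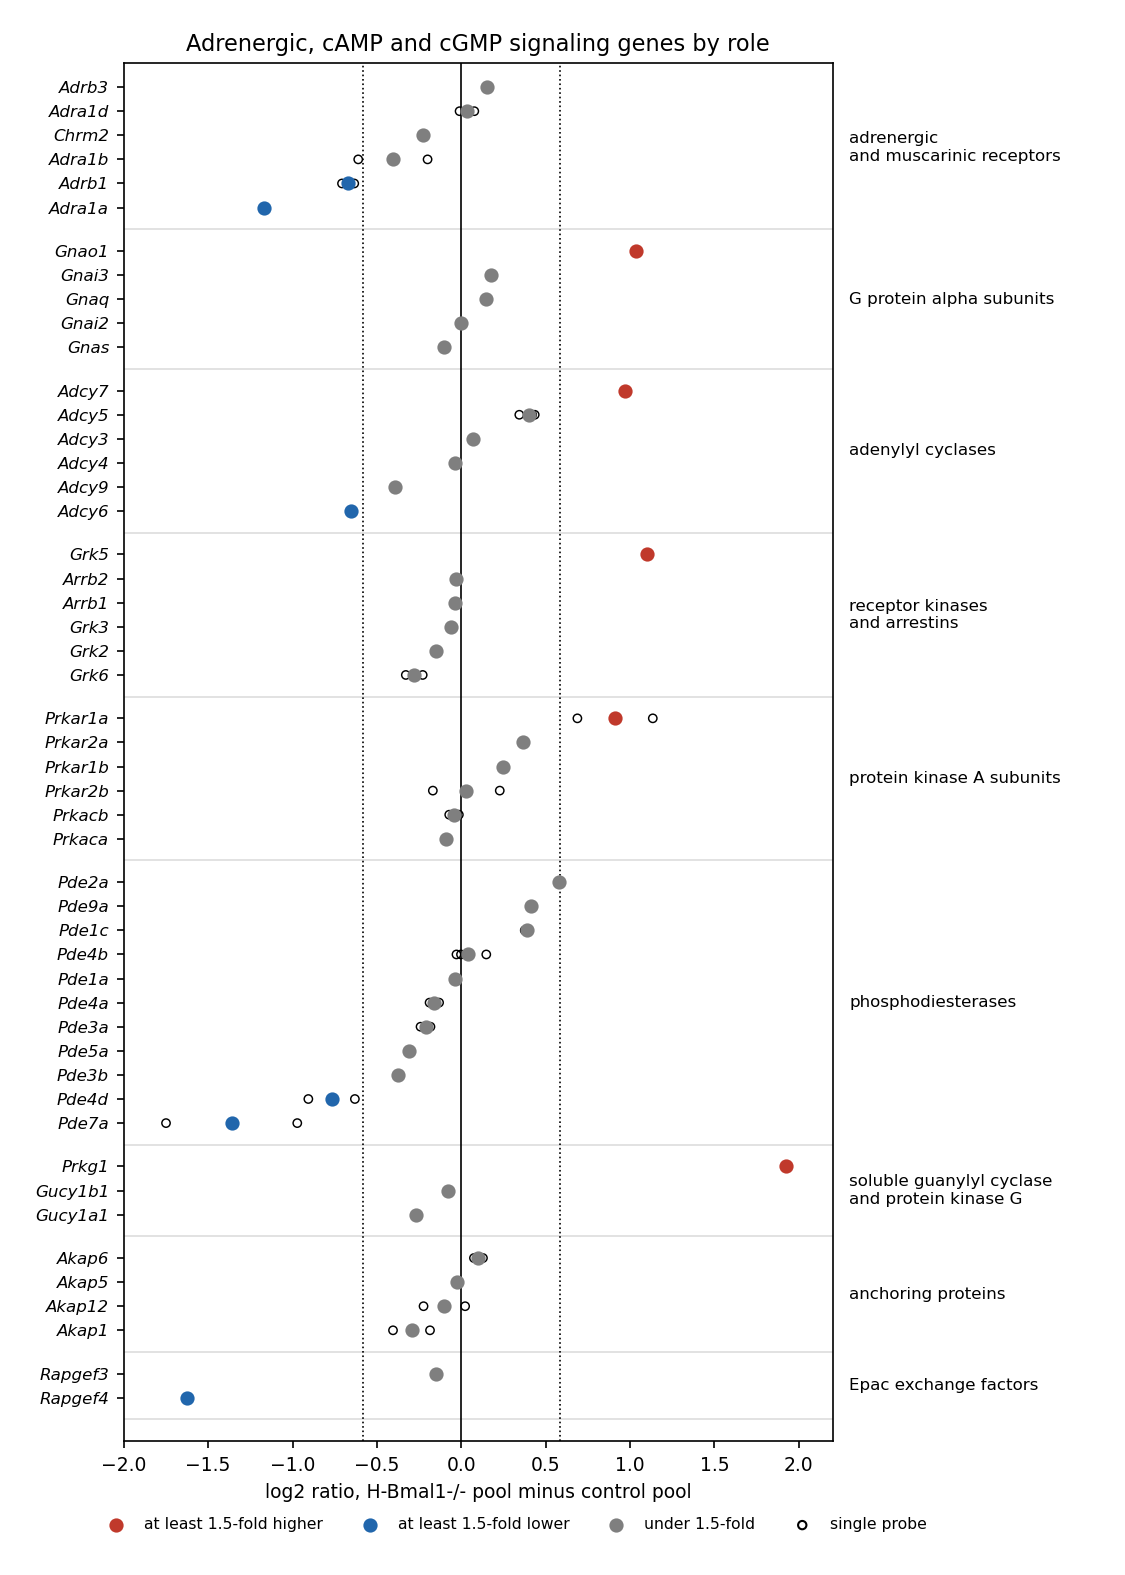
Log2 ratio of the knockout over the control pool (horizontal axis) for the 49 measured genes, grouped by role. Filled points are gene values, open points are the single probes of genes with more than 1 measured probe, and dotted lines mark 1.5-fold. Every role group but the anchoring proteins holds a colored gene, and most genes sit between the dotted lines.

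**Figure D2:**
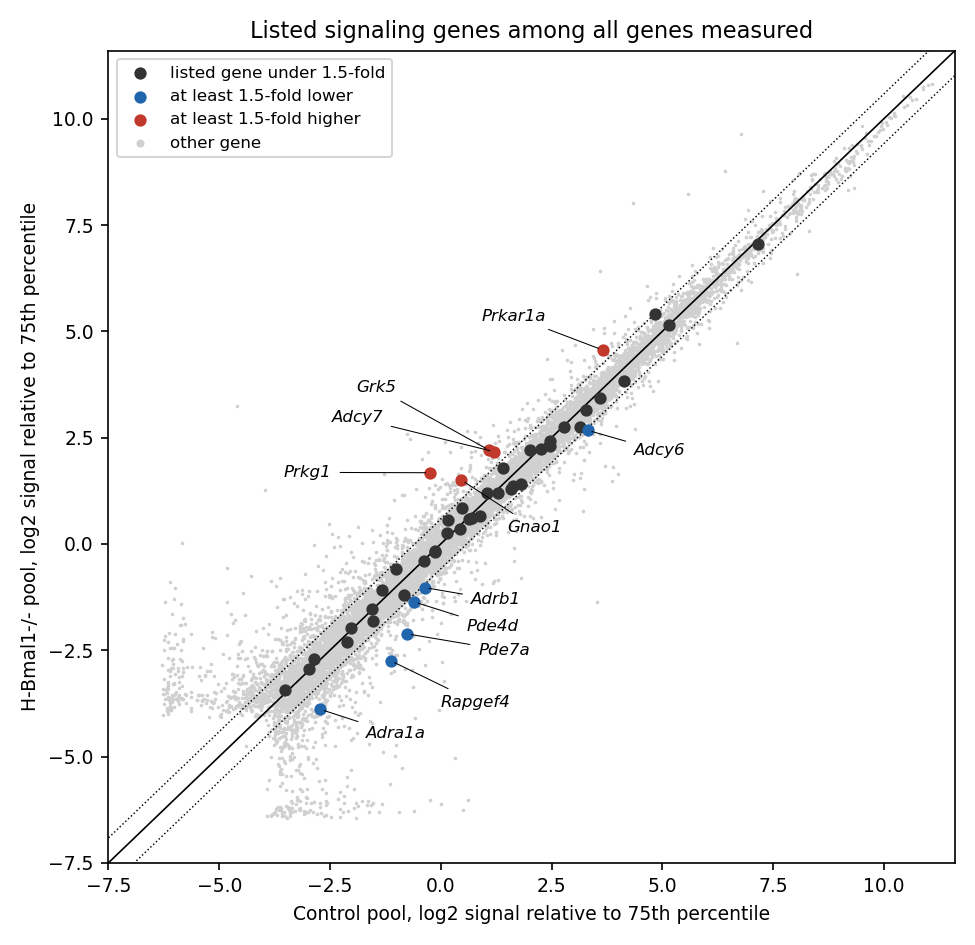
Scaled log2 signal in the knockout pool (vertical axis) against the control pool (horizontal axis) for 13846 measured genes, with the listed genes in dark or colored points. The solid line marks equal scaled signals and the dotted lines 1.5-fold. Gray points far to the left or near the bottom are genes below background on 1 array, and no listed gene is among them.

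Cell type markers also differed between the pools. Of 10 fibroblast markers 9 lay above 0, with a median log2 ratio of 0.57, a summed signal of 86531 in the knockout pool and 52688 in the control pool, and 5 of the 10 at least 1.5-fold higher. All 10 cardiomyocyte markers lay below 0, with a median of -0.23 and none 1.5-fold lower, though without scaling between arrays 7 of the 10 lay below 0. All markers of both lists were well above background on both arrays, as was *Myh6*, whose promoter drives the Cre transgene. The medians were -0.11 for 10 endothelial (0.04 without scaling), -0.18 for 10 smooth muscle and pericyte and 0.06 for 9 macrophage markers. The part of these shifts in the listed genes was not tested, and in RNA from whole ventricle fewer cells of a type and less RNA per cell cannot be told apart.

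The receptors included both genes with the lowest receptor ratios of the list, *Adra1a* and *Adrb1*. *Adrb1*, the main β adrenergic receptor of cardiomyocytes, was measured by 2 probes with signals of 294 and 29.6 in the knockout pool, against 432 and 41.3 in the control pool. The log2 ratios were -0.71 and -0.63, and the gene was 1.59-fold lower. *Adra1a*, a receptor that couples to the Gq protein and activates phospholipase C, had a signal of 12.8 in the knockout pool and 26.0 in the control pool, and was 2.25-fold lower (log2 ratio -1.17). Both of its signals are dim, in the range where repeat spots had a median SD of 0.25. *Adra1b*, another Gq-coupled receptor, had 1 probe at -0.20 and another at -0.61, with a gene value of -0.41, under the threshold. *Adra1d* and the β receptor *Adrb3* had ratios of 0.03 and 0.15. *Chrm2*, the muscarinic receptor through which the vagus nerve acts on the heart, gave 299 in the knockout pool and 315 in the control pool (-0.23). Of the 6 receptors measured, 4 lay below 0, and their median was -0.32.

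Among the G protein alpha subunits, *Gnao1* stood apart from the other 4. *Gnao1* encodes the subunit of Go, abundant in nerve cells and also found in atrial and ventricular muscle, and its signal was 539 in the knockout pool and 236 in the control pool, a 2.05-fold difference (log2 ratio 1.04). Another probe, assigned to a different *Gnao1* transcript, was not well above background on either array, with 9.99 in the knockout pool and 9.83 in the control pool. The stimulatory subunit gene *Gnas* had 25253 in the knockout pool and 24422 in the control pool (log2 ratio -0.10). The inhibitory subunit genes *Gnai2* and *Gnai3* had ratios of -0.00 and 0.17 and *Gnaq* 0.15. The ratio of *Gnao1* exceeded that of *Gnai2* by 1.04 on the log2 scale. Of the neuron and Schwann cell markers, 6 of 7 measured lay below 0, or 4 of 7 without scaling, and *Uchl1* was at 0.96.

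The adenylyl cyclases ran in opposite directions. *Adcy5* and *Adcy6* encode the cyclases regarded as the main ones of cardiomyocytes, both inhibited by calcium and by Gi. *Adcy6* had a signal of 1211 in the knockout pool and 1712 in the control pool, 1.57-fold lower (log2 ratio -0.65). *Adcy5* was measured by 3 probes with ratios of 0.34 to 0.44, all above 0, and a gene value of 0.40, under the threshold. The log2 ratio of *Adcy5* thus exceeded that of *Adcy6* by 1.05, a 2.07-fold change in the balance of the 2 signals between pools. *Adcy7*, a cyclase that is stimulated by G protein βγ subunits together with Gs and is known from blood cells and other non-muscle cells, had 856 in the knockout pool and 393 in the control pool, 1.96-fold higher (0.97). *Adcy9* was at -0.39, and *Adcy3* and *Adcy4* were at 0.07 and -0.04. The median of the 6 cyclases was 0.01, with 3 on each side of 0.

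Receptor kinases phosphorylate active receptors, after which arrestins bind and end G protein coupling. *Grk5*, a kinase that stays at the membrane and can also enter the nucleus of cardiomyocytes, had a signal of 875 in the knockout pool and 367 in the control pool, 2.15-fold higher. *Grk2*, the other abundant receptor kinase of the heart, had 940 in the knockout pool and 939 in the control pool, which after scaling gave a ratio of -0.15. *Grk5* exceeded *Grk2* by 1.25 in log2 ratio. *Grk3* was at -0.06, with an SD of 0.10 over its 10 repeat spots, and *Grk6* at -0.28. The arrestin genes *Arrb1* and *Arrb2* were both at -0.03. The difference was thus confined to 1 of the 6 genes at this threshold.

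Protein kinase A is built of catalytic and regulatory subunits. *Prkar1a*, the type I alpha regulatory subunit, was measured by 2 probes with signals of 7986 and 2528 in the knockout pool, against 3274 and 1413 in the control pool. Both probes were past the threshold, at log2 ratios of 1.14 and 0.69, and the gene was 1.88-fold higher (0.91). The catalytic subunit genes *Prkaca* and *Prkacb* had ratios of -0.09 and -0.04, so that *Prkar1a* exceeded them by 1.00 and 0.95. The type II regulatory genes gave 0.36 for *Prkar2a* and 0.03 for *Prkar2b*, whose probes were at -0.17 and 0.23, and *Prkar1b* was at 0.25. All 4 regulatory genes lay above 0 and both catalytic genes below 0, by amounts that for 5 of the 6 genes did not reach 1.5-fold, and without scaling the catalytic genes lay above 0 as well, at 0.06 and 0.11.

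**Figure D3:**
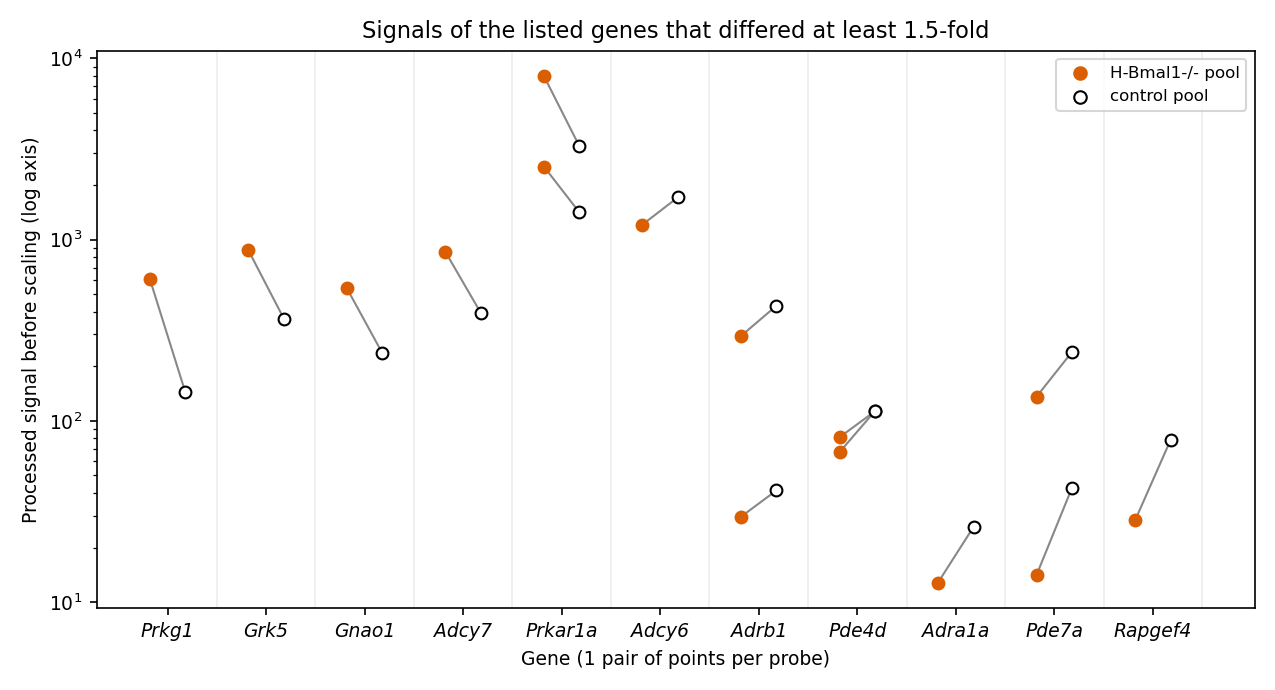
Processed signal before scaling (log axis) of each measured probe of the 11 genes that differed at least 1.5-fold, with the knockout pool in filled points to the left and the control pool in open points to the right. Lines join the arrays for 1 probe. The 2 probes of *Prkar1a*, *Adrb1*, *Pde4d* and *Pde7a* run the same way, and *Adra1a* and *Rapgef4* are dim.

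Promoter windows of 4 kinase subunits are shown because they held an E-box, the motif BMAL1 binds, and a further window of *Prkar1a* because it held a cyclic AMP response element. RefSeq windows of build GRCm38.p6, from 250 bases before to 50 after a transcript start, were at hand for 37 of the 52 genes, 77 windows in all. The palindrome CACGTG occurred in 6 of these 77 windows (7.79%), and in 7.15% of all 32851 windows searched. Counted by gene it was found in 6 of 37 listed genes (16.2%) and in 8.09% of all 27025 genes, but the listed genes had more windows per gene. The 6 genes were *Prkar1a*, *Prkaca*, *Prkar1b*, *Prkar2b*, *Gnai3* and *Adra2a*, that is 4 of the 6 kinase subunits, a grouping seen only after the search. The palindrome TGACGTCA, the full cyclic AMP response element, occurred in 2 overlapping windows of *Prkar1a* alone, against 1.79% of all windows. Its core, TGACG, read on both strands and contained in the full element, was in 22 of 77 windows (28.6%), against 20.8% of all windows. In the sequences below, printed 5′ to 3′ in the direction of transcription, the capitals mark the E-box or the full response element, and the last 50 bases are transcribed.
Prkar1a, chr11:109650292-109650591, plus strand, E-box: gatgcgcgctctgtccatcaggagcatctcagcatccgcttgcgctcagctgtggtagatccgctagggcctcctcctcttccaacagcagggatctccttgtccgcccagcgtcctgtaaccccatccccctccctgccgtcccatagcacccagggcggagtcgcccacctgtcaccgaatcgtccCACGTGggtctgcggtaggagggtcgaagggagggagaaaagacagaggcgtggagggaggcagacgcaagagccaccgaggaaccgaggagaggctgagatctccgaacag
Prkar1a, chr11:109650699-109650998, plus strand, response element: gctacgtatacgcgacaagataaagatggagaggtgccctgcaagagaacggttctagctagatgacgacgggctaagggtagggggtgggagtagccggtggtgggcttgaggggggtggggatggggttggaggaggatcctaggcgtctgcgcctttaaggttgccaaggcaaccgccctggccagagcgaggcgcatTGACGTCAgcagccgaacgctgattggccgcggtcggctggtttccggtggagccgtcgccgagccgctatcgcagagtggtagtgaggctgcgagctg
Prkaca, chr8:83972728-83973027, plus strand, E-box: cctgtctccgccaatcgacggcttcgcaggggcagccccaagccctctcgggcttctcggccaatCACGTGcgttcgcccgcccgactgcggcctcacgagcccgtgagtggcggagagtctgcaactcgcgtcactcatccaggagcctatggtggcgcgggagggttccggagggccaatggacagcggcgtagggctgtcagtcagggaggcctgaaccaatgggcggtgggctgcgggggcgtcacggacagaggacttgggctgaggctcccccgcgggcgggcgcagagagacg
Prkar2b, chr12:32061228-32061527, minus strand, E-box: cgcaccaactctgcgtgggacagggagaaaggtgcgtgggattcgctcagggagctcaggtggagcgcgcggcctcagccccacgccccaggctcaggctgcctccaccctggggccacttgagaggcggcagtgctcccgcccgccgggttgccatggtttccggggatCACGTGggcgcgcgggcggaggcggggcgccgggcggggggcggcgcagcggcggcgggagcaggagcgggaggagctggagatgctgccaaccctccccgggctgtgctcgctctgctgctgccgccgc
Prkar1b, chr5:139130428-139130727, minus strand, E-box: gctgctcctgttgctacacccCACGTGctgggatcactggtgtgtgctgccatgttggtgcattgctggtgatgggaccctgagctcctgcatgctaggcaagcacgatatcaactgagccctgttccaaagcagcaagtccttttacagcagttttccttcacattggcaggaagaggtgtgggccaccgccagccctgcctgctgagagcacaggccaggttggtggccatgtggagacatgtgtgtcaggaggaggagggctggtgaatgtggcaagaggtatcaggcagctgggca
The E-box of *Prkar1a* begins 62 bases before that transcript start, that of *Prkaca* 185, that of *Prkar2b* 80 and that of *Prkar1b* 229 bases before theirs, and the response element of *Prkar1a* begins 49 bases before a start further downstream. *Prkar1a* was the only one of the 5 higher genes with an E-box in a window, and none of the 3 lower genes with windows (*Adrb1*, *Pde4d*, *Rapgef4*) had one. The other 4 measured genes with an E-box were under the threshold, with log2 ratios of -0.09 for *Prkaca*, 0.25 for *Prkar1b*, 0.03 for *Prkar2b* and 0.17 for *Gnai3*. No binding was measured in these data.

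Phosphodiesterases were the largest role group, with 11 of 12 genes measured, 7 below 0 and a median of -0.16. The 2 genes past the threshold encode enzymes that hydrolyze cyclic AMP and not cyclic GMP. *Pde4d*, which works close to β receptors and to the ryanodine receptor complex in cardiomyocytes, had probe signals of 81.1 and 67.2 in the knockout pool, against 113 and 113 in the control pool. Its probes were at -0.63 and -0.91 and the gene was 1.70-fold lower (log2 ratio -0.77). *Pde7a* had probe signals of 136 and 14.1 in the knockout pool, against 240 and 42.8 in the control pool. Both probes were lower, at -0.97 and -1.75, and the gene was 2.57-fold lower (-1.36), with the widest gap (0.78) among listed genes between probes well above background. The sister genes *Pde4a* and *Pde4b* were at -0.16 and 0.04, and *Pde3a* and *Pde3b*, whose enzymes are inhibited by cyclic GMP, at -0.21 and -0.37.

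None of the other phosphodiesterases measured reached 1.5-fold. *Pde2a*, which cyclic GMP stimulates to break down cyclic AMP, had 8088 in the knockout pool and 4866 in the control pool (log2 ratio 0.58), a value at the edge of the rule. *Pde9a*, specific for cyclic GMP, had 125 in the knockout pool and 84.6 in the control pool (0.42), and *Pde1c*, activated by calcium and calmodulin, was at 0.39 with 2 probes at 0.38 and 0.40. *Pde5a*, also specific for cyclic GMP, was at -0.31, and *Pde1a* was at -0.04. The log2 ratio of *Pde2a* exceeded that of *Pde4d* by 1.35 and that of *Pde5a* by 0.89.

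On the cyclic GMP side, *Prkg1* had the highest ratio of the list. *Prkg1* encodes protein kinase G type I, which is abundant in smooth muscle and also present in cardiomyocytes. Its probe gave 607 in the knockout pool and 144 in the control pool, 3.79-fold higher (log2 ratio 1.92). The subunit genes of soluble guanylyl cyclase, *Gucy1a1* and *Gucy1b1*, were at -0.27 and -0.08. Of 10 smooth muscle and pericyte markers, 7 lay below 0, none was 1.5-fold higher and 1, *Abcc9*, was lower at -1.01. *Prkg1* was measured by 1 probe, and the gene's span in the RefSeq table overlaps that of *Cstf2t*. The spans of *Adcy7* and *Grk5* likewise overlap those of *Brd7* and *Zfp950*, and where these probes lie in their transcripts was not analysed here.

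The anchoring proteins showed no difference of 1.5-fold. *Akap1*, which tethers protein kinase A to mitochondria, was at -0.29, *Akap12* at -0.10 with 1 probe on each side of 0, *Akap5*, an anchor at the plasma membrane, at -0.03, and *Akap6*, an anchor at the nuclear envelope of cardiomyocytes, at 0.10. The Epac genes differed from each other. *Rapgef4*, which encodes Epac2, an exchange factor for Rap that cyclic AMP activates directly, had 28.3 in the knockout pool and 78.5 in the control pool, 3.08-fold lower (log2 ratio -1.62), the lowest ratio of the list. *Rapgef3*, which encodes Epac1, had 1676 in the knockout pool and 1672 in the control pool, at -0.15 after scaling, 1.48 above *Rapgef4* in log2 ratio.

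Where 2 or more probes measured a gene, they mostly ran the same way. Of 17 such genes 13 had all probes on one side of 0. The 4 others, *Adra1d*, *Akap12*, *Pde4b* and *Prkar2b*, were within 0.2 of 0 as genes. Among the 11 genes past the threshold, 4 were measured by 2 probes each, and all 8 of these probes were past 1.5-fold in the direction of their gene. The other 7 rested on 1 probe.

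The direction of these 11 genes was the same under the 12 alternative ways of processing that were run, but the size of the ratio was not. The kept direction was largely fixed in advance. A uniform shift of about 0.15 cannot turn around a ratio past 1.5-fold, and the median over probes and the brightest probe cannot change a gene with 1 measured probe. *Prkg1*, *Grk5*, *Adcy7*, *Prkar1a*, *Pde7a* and *Rapgef4* stayed past 1.5-fold under all 12. A normexp background correction, which shrinks the ratios of dim probes, left *Adra1a* at -0.38, *Pde4d* at -0.47, *Adrb1* at -0.42 and *Adcy6* at -0.55, all short of the threshold, and took *Rapgef4* to -0.73 and *Pde7a* to -0.70. *Adcy6*, with signals of 1211 in the knockout pool and 1712 in the control pool, is not dim but lay near the threshold. Without scaling between arrays *Adrb1* was at -0.52 and *Adcy6* at -0.50. *Gnao1* fell short, at 0.45, only where the probe below background was averaged in. *Pde2a* passed the threshold under 5 of the 12, and *Adra1b*, at -0.61, where the brightest probe stood for the gene.

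**Figure D4:**
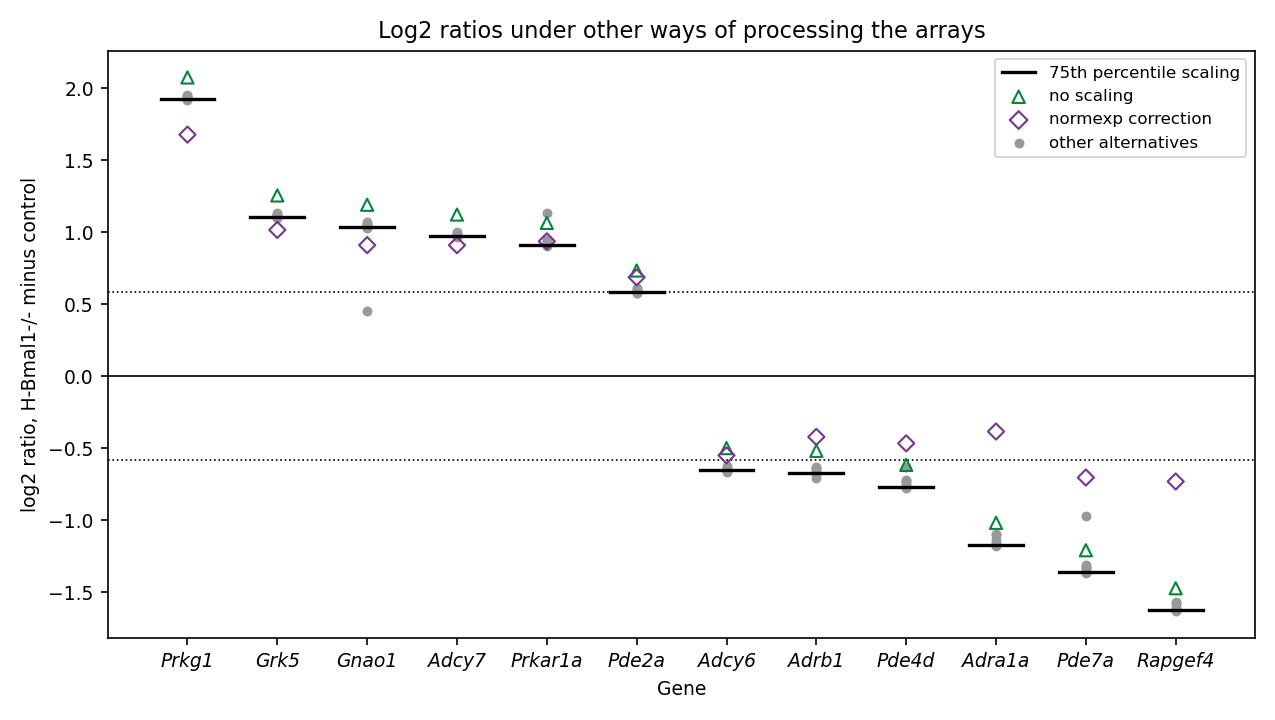
Log2 ratio of the knockout over the control pool (vertical axis) for the 11 genes past 1.5-fold and *Pde2a* under each way of processing. Black bars are the values with scaling to the 75th percentile, symbols the alternatives, and dotted lines 1.5-fold. No symbol crosses 0, and the purple diamonds show the smaller ratios of the dim genes after normexp correction.

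The rest of the pathway was read from 7 lists of 130 further genes, of which 112 were measured. Of these 5 were past 1.5-fold on the higher side and 11 on the lower side, against 6.15% higher and 5.85% lower among all 13846 measured genes, with a median log2 ratio of -0.09 and 69 below 0. The balance of directions depended on the processing, with 2 higher and 6 lower after normexp correction, and 8 higher, 5 lower and a median of 0.06 without scaling. Among other receptors (16 measured, median -0.17), *Adora1*, the inhibitory adenosine receptor, had 252 in the knockout pool and 123 in the control pool (0.88), and *Ptger4*, a prostaglandin receptor that raises cyclic AMP, had 48.7 in the knockout pool and 24.6 in the control pool (0.83). The receptors of 2 vasoconstrictor peptides were lower, *Ednra* for endothelin at -0.77 and *Agtr1a* for angiotensin II at -0.73. *Ptger1* was well above background in the control pool alone, with 3.81 in the knockout pool and 77.0 in the control pool, which makes it at least 7.72-fold lower. Such a bound sets the bright pool against the lowest signal counted as well above background on the other array.

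Of the 25 genes for other G protein subunits and RGS proteins, which speed the turning off of G proteins, *Rgs6* was lower at -1.10 with 66.1 in the knockout pool and 129 in the control pool, and *Gna12* was lower at -0.63. *Rgs6* ends signaling from muscarinic receptors in the heart. Among other cyclases and phosphodiesterases, 8 measured, *Adcy1* was higher at 0.64 and *Pde7b*, the sister gene of *Pde7a*, was lower at -0.71 with both probes below 0. Of 18 other regulators of protein kinase A, *Ppp1r3a* and *Ppp1r1b*, which encode a targeting subunit and an inhibitor of protein phosphatase 1, were lower at -0.77 and -0.70. No gene of these 3 lists other than *Adcy1* was 1.5-fold higher. After normexp correction *Adcy1* (0.18), *Pde7b* (-0.24), *Gna12* (-0.44) and *Ppp1r1b* (-0.25) were short of 1.5-fold, as was *Ptger4* (0.30) among the receptors. Without scaling *Pde7b*, *Gna12*, *Ppp1r1b* and *Agtr1a* were short of it, at -0.55, -0.47, -0.55 and -0.58. *Popdc3*, one of the 18 other regulators of protein kinase A, passed 1.5-fold on the higher side without scaling, at 0.71, against 0.56 with scaling.

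The list of cardiac substrates of protein kinase A also held other calcium and muscle proteins, such as *Atp2a2*, *Sln* and *Tnnt2*. Its median was -0.31, with 11 of 15 genes below 0, and without scaling -0.16, with 8 below 0. Of its genes, 4 (*Pln*, *Ryr2*, *Tnni3* and *Tnnt2*) are also among the cardiomyocyte markers. *Cacna1c*, the pore of the L-type calcium channel, had 33.1 in the knockout pool and 54.0 in the control pool (-0.86), and its span overlaps that of *Dcp1b*. *Atp2a2*, the calcium pump of the sarcoplasmic reticulum, had 28777 in the knockout pool and 39527 in the control pool (-0.67) with both probes lower, and *Lipe*, hormone-sensitive lipase, was at -0.63. *Sln*, which encodes sarcolipin, an inhibitor of that pump, was well above background in the knockout pool alone, with 33.7 in the knockout pool and 2.94 in the control pool, at least 2.75-fold higher. After normexp correction *Sln* (0.54), *Cacna1c* (-0.38) and *Lipe* (-0.43) were short of 1.5-fold and *Atp2a2* (-0.61) alone passed it, whereas without scaling *Atp2a2* (-0.51) and *Lipe* (-0.48) were short of it. In whole ventricle the median of the cardiomyocyte markers was -0.23, and its part in the lower values of these muscle genes was not tested.

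Genes of transcription under cyclic AMP showed none past 1.5-fold among 19 measured, with a median of -0.12 and 14 below 0. Without scaling the median was 0.03, 7 lay below 0 and *Crem* passed 1.5-fold at 0.63. *Crem*, which encodes activators and repressors that bind the response element, had the highest ratio of them, 0.48, with 258 in the knockout pool and 163 in the control pool. On the natriuretic peptide and nitric oxide side, 11 genes had a median of 0.03. Without scaling the median of these genes was 0.18, with 1 gene below 0, and *Npr3* passed 1.5-fold at 0.62, against 0.47 with scaling. *Ddah1*, which breaks down an endogenous inhibitor of nitric oxide synthase, had mean signals of 185 in the knockout pool and 51.96 in the control pool, with both probes higher and a log2 ratio of 1.66.

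**Figure D5:**
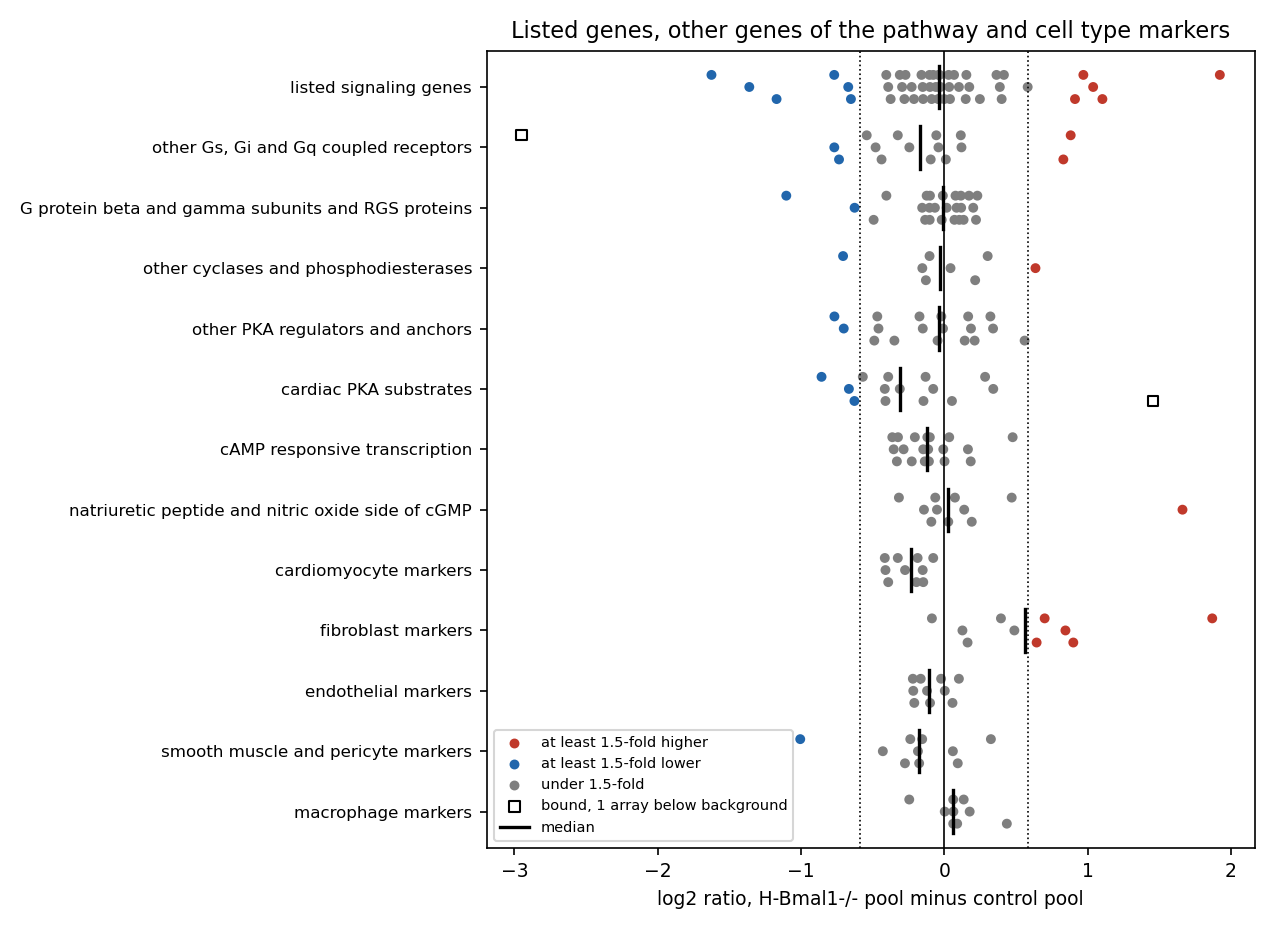
Log2 ratio of the knockout over the control pool (horizontal axis) for the listed genes, the 7 other lists of the pathway and 5 lists of cell type markers, 1 point per gene. Black bars are list medians, dotted lines mark 1.5-fold, and open squares are bounds for *Ptger1* and *Sln*, which were below background on 1 array. Fibroblast markers lie mostly to the right of 0 and all 10 cardiomyocyte markers to the left, or 7 of 10 without scaling.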

How the data were processed

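Left ventricular RNA, pooled from 6 animals per genotype, was hybridized by the authors to Agilent SurePrint G3 Mouse arrays in 1 color. The deposited intensities are the processed signals of Agilent Feature Extraction, background corrected and on a linear scale. The submitters' processing notes give version 10.5.1.1 and the scanner output 10.10.1.1. The deposited value table held the same signals times 1 factor per array (log2 2.31 for the knockout and 2.45 for the control array), with medians of 64 and 67.2, by a rule that no source used here states. The table was tried as an alternative.

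Processed signals were put on the log2 scale, less their own array's 75th percentile, taken over noncontrol spots. Control spots and 269 spots with an outlier flag were left out and spots of a probe were averaged. A gene is the mean over those of its probes that either array showed well above background. Of 59305 noncontrol spots, 50.0% on the knockout and 49.4% on the control array were well above background. Symbols came from probe accessions through a RefSeq gene table of GRCm38.p6, used for names only, which named 26759 of 55676 probes. Of the measured genes, 472 passed background in the knockout pool alone and 324 in the control pool alone, and these entered counts as bounds. Named are all listed genes past 1.5-fold, the lowest and highest of each role group, further members by value, and every gene of the other lists past 1.5-fold. *Uchl1*, *Abcc9*, *Crem*, *Popdc3* and *Npr3* were named after their values were seen. The members and all lists were chosen with earlier results of these data known. A list's counts are described beside those of all genes, with no test, and the number of arrays limits the precision.

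The alternatives were no scaling, scaling to the median of probes that both arrays showed well above background, quantile normalization, cyclic loess, scaling to 7 E1A spike-in probes, no filter or a stricter filter on dim probes, the brightest probe of a gene, the median over probes, normexp with an offset of 50 on the median signals, the value table, outlier spots kept, and thresholds of 1.3-fold and 2-fold. Calculations used Python 3.11.15, numpy 2.4.6, pandas 2.3.3, matplotlib 3.10.9, R 4.3.3 and limma 3.58.1. The averaging of spots and probes into log2 ratios was tested on simulated arrays with less noise than dim probes had. The bounds, the 1.5-fold counts, the alternatives and the motif search were not tested in that way.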

Additional observations from a re-analysis of the deposited data

How the results depend on the processing

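No paired analysis was possible because each genotype has 1 array. The 11 listed genes past 1.5-fold kept their direction under all 12 alternatives, and the counts of 5 higher and 6 lower genes stayed within 1.5 times of these except as follows. With normexp correction 2 genes were lower, *Pde7a* and *Rapgef4*, and 6 were higher, against 2.67% higher and 1.79% lower among all genes. Without scaling between arrays the median log2 ratio of the list was 0.11 and that of all genes 0.14, with 6 genes higher and 4 lower against 9.66% and 3.83% among all genes. At 1.3-fold 9 genes were higher and 8 lower, against 11.5% and 11.9% of all genes, and at 2-fold 3 were higher (*Gnao1*, *Grk5*, *Prkg1*) and 3 lower (*Adra1a*, *Pde7a*, *Rapgef4*), against 2.41% and 2.06%. Of the values of single genes under an alternative, 91 moved by more than the median SD between repeat spots (0.07) and 497 did not. Of the medians of role groups, 16 moved by more than that and 92 did not. Both splits, and the kept direction of the 11 genes, largely follow from the choice of alternatives and do not measure how stable the genes are. Leaving out scaling raised every ratio by 0.15, so all of them moved. Scaling to spike-in probes or to a median signal shifted every ratio by 1 amount under 0.07. Keeping outlier spots left the listed values unchanged. The median over probes and the brightest probe cannot change a gene with 1 measured probe. With 1 pool per genotype the spread between animals is unknown, and with 1 time of day a shift in daily phase and a change of level cannot be told apart. Repeat spots cover technical error within the arrays only, and ratios of probes with signals under 50, such as that of *Adra1a*, are the least certain.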
